A study of Mus musculus with 48 samples.

Results

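The genes Gsn, Gpx3 and Myoc were followed from the joint to muscle and skin in mice with collagen-induced arthritis (CIA). They are 3 of the 34586 genes in the single-cell table, and they were chosen from these data because their UMIs were lower in joint fibroblasts of CIA mice than in joint fibroblasts of healthy mice. The joint values below are therefore a description and carry no test, and the question put to the data was whether fibroblasts of muscle and skin, which the choice did not use, follow. The cells of 4 healthy and 6 CIA mice were read by Seq-Well, in which cells settle singly into small wells with capture beads and transcripts are counted by unique molecular identifiers (UMIs). Joint, muscle, skin, lung and spleen gave 48 samples in all, with joint samples from 3 healthy and 5 CIA mice. All mice were male DBA1/J. The CIA mice had received bovine type II collagen in complete Freund's adjuvant and a boost in incomplete adjuvant, and the healthy mice, which had an arthritis score of 0, had received buffered saline. Severe arthritis (a score of 8) was recorded in CIA mice S1, S2 and S3, and mild arthritis in S5 (4 to 5), S6 (3 to 4) and S8 (2 to 3). All 3 severe mice and healthy mouse H3 carry the experiment name 2CIA, and the mild mice and healthy mice H4, H6 and H7 carry the name CIA, so that the effect of severity cannot be told apart from that of the experiment among CIA mice. The model is an immunized inbred strain of 1 sex, tissues were cryopreserved, and joint, muscle and skin, the organs compared, were digested with different collagenases, so among them organ and digestion cannot be told apart either.

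Gsn encodes gelsolin, which severs and caps actin filaments and also has a secreted form that clears actin from plasma. Gpx3 encodes the secreted glutathione peroxidase, a selenoprotein that reduces peroxides outside the cell. Myoc encodes myocilin, a secreted glycoprotein with an olfactomedin domain that is best known from the trabecular meshwork of the eye. Fibroblasts build and remodel the extracellular matrix. In the synovium, lining fibroblasts make lubricin, sublining and perivascular fibroblasts carry markers shared with the adventitia of vessels in other organs, and in arthritis many of them make proteases, chemokines and acute phase proteins.

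On GRCm38 (GENCODE M21), Gsn lies on the plus strand at chr2:35256380-35307892, with 7 annotated transcripts, 6 of them coding. Most of these start near the 5′ end of the gene, and others start at an internal exon. Gpx3 lies on the plus strand at chr11:54902453-54910377 with 3 transcripts, and Myoc on the plus strand at chr1:162639155-162649693 with 1 transcript. The 3′ end of Myoc overlaps Myocos on the opposite strand, and how strand was used in counting is not given in the sources used here. The transcripts were captured by their 3′ ends, so the starts of Gsn, and with them its secreted and cytoplasmic forms, were not told apart. The bases just upstream of 4 starts are shown because the 3 genes were lower together in the joint. They come from the RefSeq promoter table (GRCm38.p6), in which all 3 genes matched, are written 5′ to 3′ on the plus strand, and end where the transcript starts, except that the Gpx3 stretch leaves out the last 82 bases because GENCODE places them in an exon. Capitals mark matches to the motifs searched on both strands. These were TATAAA (the TATA box), GGGCGG (a GC box), CCAAT (named after its letters), TGANTCA (an AP-1 type site), TGTTTAC (a forkhead type site), TTCNNNGAA (a STAT type site) and TGACNNNGC (an antioxidant response type site), and no match overlapped another.
Gsn, 5′ start, chr2:35256109-35256358: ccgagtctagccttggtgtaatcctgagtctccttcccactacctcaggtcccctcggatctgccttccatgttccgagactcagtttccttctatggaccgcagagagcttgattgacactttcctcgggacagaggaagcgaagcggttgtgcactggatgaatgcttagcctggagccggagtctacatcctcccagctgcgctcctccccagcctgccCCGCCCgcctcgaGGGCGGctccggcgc
Gsn, internal start, chr2:35282130-35282379: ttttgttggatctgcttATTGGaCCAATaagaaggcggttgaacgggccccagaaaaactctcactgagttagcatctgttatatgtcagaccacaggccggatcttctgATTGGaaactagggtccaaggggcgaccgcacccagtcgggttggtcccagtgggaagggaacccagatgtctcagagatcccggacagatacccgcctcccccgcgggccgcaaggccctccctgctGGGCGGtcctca
Gpx3, chr11:54902604-54902771: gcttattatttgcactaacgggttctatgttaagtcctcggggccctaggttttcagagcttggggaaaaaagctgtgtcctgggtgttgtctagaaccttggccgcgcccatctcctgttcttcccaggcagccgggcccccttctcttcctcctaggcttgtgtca
Myoc, chr1:162638900-162639149: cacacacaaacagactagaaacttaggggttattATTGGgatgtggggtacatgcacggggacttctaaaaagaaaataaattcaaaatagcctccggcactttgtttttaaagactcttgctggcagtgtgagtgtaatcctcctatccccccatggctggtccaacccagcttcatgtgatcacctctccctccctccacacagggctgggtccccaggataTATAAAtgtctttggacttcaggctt
In the 250 bases before each start, Myoc held TATAAA, which begins 26 bases before its start, and CCAAT on the minus strand. TATAAA was in 12.4% of 32851 RefSeq windows of this length and was found in no window of the other genes. Gsn held GGGCGG in both windows shown, 2 matches before the 5′ start and 1 before the internal start, and CCAAT 3 times before the internal start. A further RefSeq window of Gsn, at chr2:35266494-35266743, held GGGCGG and CCAAT once each. Gpx3 held GGGCGG and CCAAT once each, both in the stretch left out. GGGCGG was in 32.7% and CCAAT in 33.8% of all windows. The AP-1, forkhead, STAT and antioxidant response type motifs, which were in 6.75%, 3.17%, 7.02% and 10.2% of all windows, had no match in these windows. No motif searched was shared by all 3 genes other than CCAAT, and the matches are letters only.

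The authors labelled 1322 of 13240 cells as fibroblasts: 603 in joint, 377 in muscle, 324 in skin, 18 in lung and 0 in spleen. Lung had at most 6 in a mouse and was not compared. All 1322 carried the fibroblast label before the authors applied their marker genes, a list that includes Gsn itself. In mice with at least 10 of these cells, on the scale defined next, the other 7 genes of that list (Col1a2, Col3a1, Fbln2, Fstl1, Mmp2, Sparc and Vim) summed to 7046 to 55012 CPM, and the 5 T cell markers to 0 to 295. In the same sums the 6 granulocyte markers reached 30292 CPM in CIA joints and 16452 in healthy muscle. The 4 red cell markers reached 144697 CPM and the 5 endothelial cell markers 2066, both in healthy muscle. Some of these sums exceed the lowest fibroblast marker sum. Levels are in CPM, a gene's UMIs scaled to the same total of UMIs for the fibroblasts of each mouse (counts scaled in the usual way for single-cell sums). A mouse entered a fit with at least 10 fibroblasts, and the sums held 38642 to 282053 UMIs in joint, 10173 to 196415 in muscle and 17979 to 75031 in skin. 3 fibroblasts had a barcode that was also in another library. In bulk sums of this kind, fewer cells that express a gene and less RNA per cell cannot be told apart without the shares of cells given below.

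In healthy joints, Gsn was 15827, 18580 and 12862 CPM in mice H3, H4 and H7. In CIA joints it was 1552, 291 and 1624 in mice S1, S3 and S5. Every CIA mouse lay below every healthy mouse, with means of 15756 ± 2860 (SD, n = 3) and 1156 ± 749 (SD, n = 3), a log2 difference of -3.85 (SE 0.70). Gsn transcripts thus went from over 1% of all fibroblast UMIs in each healthy joint to under 1% in each CIA joint. CIA mice S6 and S8 had only 9 and 4 joint fibroblasts, did not enter the fit, and gave 888 CPM (17 UMIs) and 3318 CPM (8 UMIs), also below the healthy mice. They are joint values as well, and are no check on the choice.

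Gpx3 in healthy joints was 1440, 1084 and 1682 CPM in H3, H4 and H7. The CIA joints held 336, 175 and 128 in S1, S3 and S5, again without overlap, and the log2 difference was -2.75 (SE 0.44). S8 gave 2 UMIs of Gpx3 (830 CPM) and S6 gave 0 UMIs, where 3 UMIs would be 157 CPM. Myoc was 301, 666 and 181 CPM in healthy H3, H4 and H7. It was 28, 14.6 and 28.4 in S1, S3 and S5, from 6, 1 and 8 UMIs, with a log2 difference of -4.00 (SE 0.63). For each of the 3 genes the groups did not overlap, and 6.8% of the 1014 genes tested lay lower in every CIA mouse than in every healthy mouse. The fit across all genes called 1.68% of genes at an adjusted p of 0.05 and 0.493% as lower, which is 5 genes, and these 3 are among them by choice, so nothing is read from that count. Just inside that limit was Pcolce2, an enhancer of procollagen processing (476 CPM in healthy and 86.8 in CIA joints), and just outside was Angptl7, a secreted angiopoietin-like protein (2245 and 123). These 2 were named after their values were seen.

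**Figure D1:**
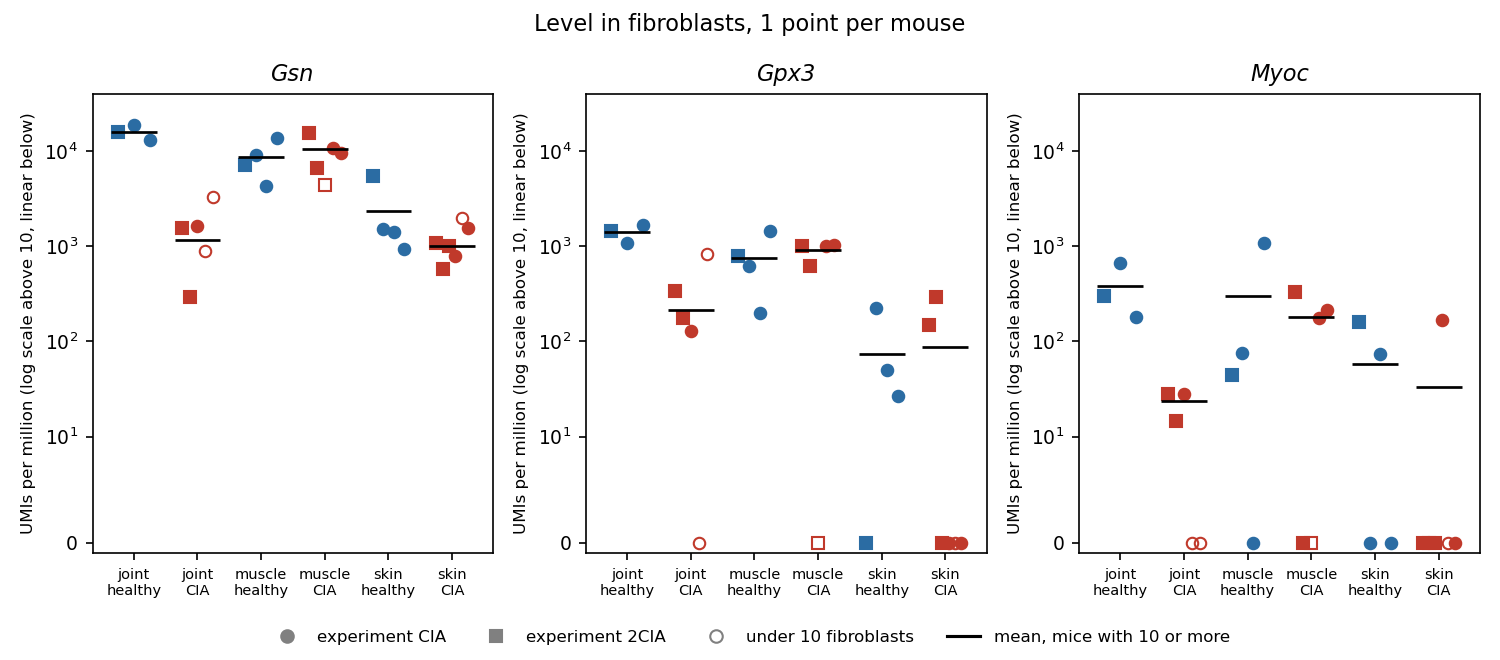
CPM of Gsn, Gpx3 and Myoc in fibroblasts of joint, muscle and skin, 1 point per mouse (blue healthy, red CIA; circles are the experiment CIA and squares 2CIA; open points are mice with under 10 fibroblasts), on an axis that is linear below 10 and logarithmic above, with the mean of the mice with 10 or more as a line. The healthy and CIA points of joint are apart for each gene, and in muscle the groups overlap for each gene, as they do in skin.

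In the joint, both the share of cells with a UMI and the number of UMIs in those cells were lower in CIA mice. Without thinning, 174 of 192 healthy joint fibroblasts and 218 of 411 CIA joint fibroblasts held a Gsn UMI, although the CIA cells were deeper (median 1021, 1035 and 1472 UMIs in S1, S3 and S5 against 679 to 838 in healthy mice). Cells with Gsn held a mean of 14.2 to 16.4 Gsn UMIs in healthy mice and 2.00 to 4.36 in S1, S3 and S5. When each cell was thinned to 400 UMIs, 80.2% to 90.4% of healthy and 12.5% to 37.5% of CIA fibroblasts held Gsn. Gsn made up 1% or more of the UMIs in 111 of 192 healthy cells and in 15 of 411 CIA cells. For Gpx3 the thinned shares were 17.3% to 26.3% in healthy and 3.57% to 9.34% in CIA joints, and for Myoc 4.11% to 12.3% and 1.10% to 2.5%. These shares use the same cells as the choice and are a description.

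Cells with more than 1 of the 3 transcripts were counted. In healthy joints, 23 of 24 fibroblasts with a Myoc UMI also had Gsn, beside 151 of 168 (89.9%) without Myoc, and 11 of 24 (45.8%) had Gpx3 against 48 of 168 (28.6%) without it (median depths of 722 and 717 UMIs). In CIA muscle, 30 of 30 cells with Myoc had Gsn and 18 of 30 (60.0%) had Gpx3 against 115 of 265 (43.4%), but the cells with Myoc were deeper (1042 against 787 UMIs). In healthy joints Gpx3 was in 8 of the 18 cells without Gsn and in 51 of the 174 cells with it. In CIA joints it was in 40 of 193 cells (20.7%) without Gsn and in 29 of 218 (13.3%) with it. The cells of a group come from few mice, so these shares were not tested.

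The other fibroblast markers are set beside Gsn here. The other 7 genes of the authors' list summed to 12655 to 23271 CPM in healthy joints and to 18913 to 55012 in CIA joints. Per 100 UMIs of those 7 genes, fibroblasts held 77.2, 79.8 and 102 UMIs of Gsn in H3, H4 and H7 and 2.82, 1.54 and 3.05 in S1, S3 and S5. Gpx3 went from 4.66 to 13.3 per 100 in healthy mice to 0.240 to 0.924 in CIA mice on this scale, and Myoc from 1.43 to 2.86 to 0.0508 to 0.0770. The scale was chosen after the values were seen.

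**Figure D2:**
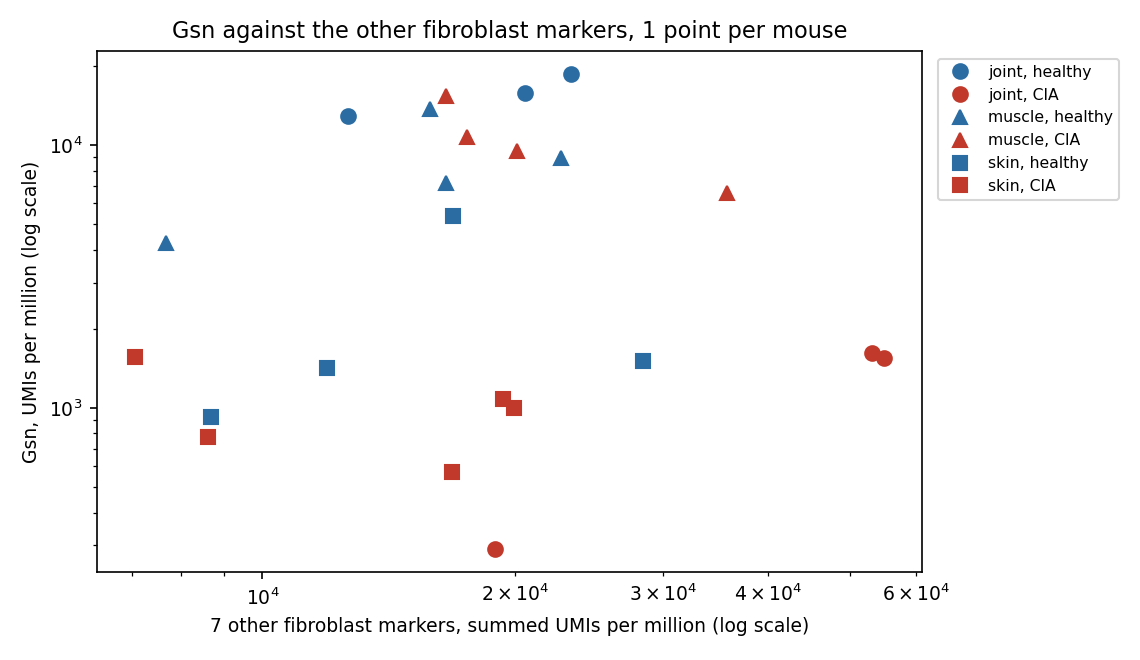
Gsn (vertical, CPM, log axis) against the summed level of the 7 other fibroblast markers (horizontal, log axis) in fibroblasts, 1 point per mouse with 10 or more fibroblasts (circle joint, triangle muscle, square skin; blue healthy, red CIA). The 3 CIA joints lie at 291 to 1624 for Gsn at marker levels of 18913 to 55012, and the 3 healthy joints lie at 12862 to 18580 for Gsn at marker levels of 12655 to 23271.

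Joint fibroblasts were also split by genes of fixed lists. In cells with a UMI of a synovial lining gene (lubricin gene Prg4 among them), Gsn was 12610 to 15666 CPM in the 3 healthy mice and 164 to 1350 in the 3 CIA mice. In cells without one it was 16332 and 27381 in the 2 healthy mice with 10 such cells and 1336 to 5086 in the 3 CIA mice. Cells with a cartilage or tendon gene held 12623 to 18129 and 401 to 1472, and cells without one 16951 and 19499 (2 healthy mice) and 229 to 2599. In cells without a UMI of any inflamed fibroblast gene, Gsn was 17490 and 20856 in 2 healthy mice and 2220 and 3029 in 2 CIA mice. All 398 fibroblasts of S1, S3 and S5 held a granulocyte marker and a red cell marker, so cells without these could not be compared. In each stratum given here the CIA mice lay below the healthy mice. The strata hold the cells on which the genes were chosen, so this is a description.

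Granulocyte markers and Gsn outside fibroblasts also differed between the joint groups without overlap, while red cell markers and the fibroblast share overlapped. The 6 granulocyte markers summed to 1440 to 6081 CPM in healthy and 13837 to 30292 in CIA joint fibroblasts. The 4 red cell markers summed to 108938 in healthy mouse H4, 10533 and 11031 in H7 and H3, and 15255 to 21773 in the CIA mice. The joint cells that were not fibroblasts held 396 to 1108 CPM of Gsn in healthy and 72.8 to 296 in all 5 CIA mice, in the direction of the fibroblasts. Fibroblasts made up 42.2% to 52.8% of labelled cells in healthy joints and 4.82% to 44.4% in CIA joints. The part of each of these in the joint values was not tested. Without H4 the Gsn difference was -3.60, and in the mice of the experiment CIA alone (H4 and H7 against S5) it was -3.40 on the log2 scale.

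In muscle fibroblasts the groups overlapped for all 3 genes, and none of the 3 passed the test. Gsn was 7148, 8953, 4227 and 13765 CPM in healthy H3, H4, H6 and H7. In CIA mice S1, S2, S5 and S6 it was 15387, 6593, 10783 and 9531. The means were 8523 ± 4001 and 10574 ± 3658 (SD, n = 4 each), the CIA mean being the higher, and the log2 fold change was 0.57 (SE 0.48, 95% interval -0.50 to 1.64, edgeR adjusted p = 0.757). The interval holds no fall larger than 0.50 on the log2 scale. In the mice of the experiment CIA alone it was 0.25, and the experiment 2CIA held 1 healthy mouse. S3 had 2 muscle fibroblasts (5 Gsn UMIs) and S8 had none.

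Gpx3 in muscle fibroblasts was 794, 612, 197 and 1434 CPM in H3, H4, H6 and H7. The CIA mice S1, S2, S5 and S6 held 993, 618, 1008 and 1037, within the range of the healthy mice. The log2 fold change was 0.42 (SE 0.42, 95% interval -0.53 to 1.36, edgeR adjusted p = 0.802). Myoc did not pass the count filter in muscle. It was 44.1, 76.5, 0 and 1075 CPM in the healthy mice (1, 1, 0 and 15 UMIs) and 331, 0, 178 and 214 in the CIA mice (4, 0, 35 and 21 UMIs). In the fit of all genes with at least 1 UMI its log2 fold change was -0.13 (SE 0.73, 95% interval -1.56 to 1.3, edgeR adjusted p = 0.939), and without H7, the healthy mouse with 15 of the 17 healthy UMIs, it was 2.48. No gene passed in muscle fibroblasts (0% of 173 genes by edgeR, 6.36% at an unadjusted p below 0.05, and 3 genes by DESeq2), so no gene beyond the lists is named there. The 4 red cell markers reached 144697 CPM in H6 and 99169 in S2.

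In skin, Gsn was lower in CIA fibroblasts on average, but the difference did not pass. It was 5396, 1507, 1416 and 925 CPM in healthy H3, H4, H6 and H7. In CIA mice S1, S2, S3, S5 and S8 it was 1085, 573, 998, 779 and 1561. H3 stood above all others, and the other 3 healthy mice lay within the range of the CIA mice. The means were 2311 ± 2072 (SD, n = 4) and 999 ± 372 (SD, n = 5), and the log2 fold change was -1.13 (SE 0.46, 95% interval -2.11 to -0.15). Its unadjusted p of 0.0268 by edgeR was one of 31 below 0.05 among 349 genes (8.88%, with 4.3% lower in CIA), and the adjusted p was 0.493. Without H3 the log2 fold change was -0.34 (edgeR adjusted p = 0.925), and in the mice of the experiment CIA alone it was -0.12. H3 was the only healthy mouse of the experiment 2CIA. CIA mouse S6, with 8 skin fibroblasts, gave 1972 CPM (11 UMIs).

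Gpx3 and Myoc were near the limit of detection in skin fibroblasts. Gpx3 had 8 UMIs in 128 healthy cells and 28 in the 188 CIA cells of the fit, 22 of them in S2. It was 0, 222, 49.7 and 26.4 CPM in H3, H4, H6 and H7 and 148, 293, 0, 0 and 0 in S1, S2, S3, S5 and S8. The fit of all genes gave a log2 fold change of 1.08 (SE 0.72, 95% interval -0.33 to 2.49, edgeR adjusted p = 0.575), which was -0.31 without S2. Myoc had 6 UMIs in healthy and 3 in CIA cells, at 159, 0, 74.5 and 0 CPM in the healthy mice and 167 in S5 alone among the CIA mice. Its log2 fold change was -1.17 (SE 1.07, 95% interval -3.27 to 0.94, edgeR adjusted p = 0.575), a wide interval on both sides of 0. No gene passed in skin fibroblasts by edgeR (0% of 349 genes), and 1 passed by DESeq2.

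**Figure D3:**
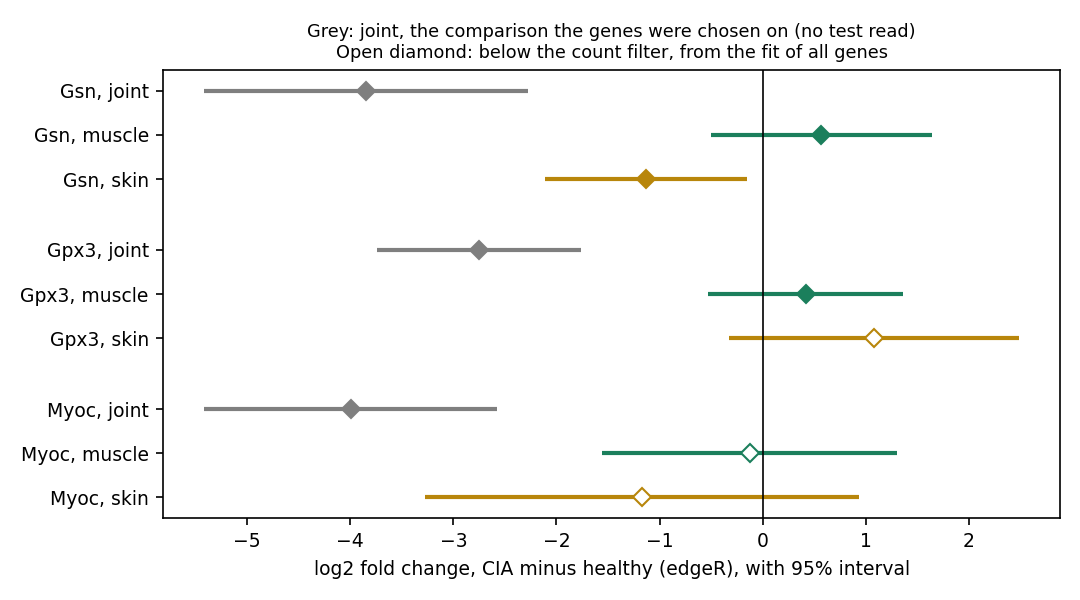
Log2 fold change of CIA against healthy fibroblasts with its 95% interval from edgeR, for each gene and organ (grey joint, green muscle, ochre skin; open diamonds are genes below the count filter, taken from the fit of all genes). The joint values, which chose the genes, lie between -4.00 and -2.75, the muscle values between -0.13 and 0.57 with intervals across 0, and of the skin intervals that of Gsn ends at -0.15.

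The difference between the muscle and skin effects was fitted as well, a comparison added after the values were seen. For Gsn the muscle effect exceeded the skin effect by 1.66 on the log2 scale (SE 0.70, unadjusted p = 0.0253, edgeR adjusted p = 1.00 over 1134 genes). Within the 7 mice that had both organs, with the mouse as a block, it was 1.83 (SE 0.68, edgeR adjusted p = 0.839 over 405 genes). For Gpx3 it was -0.49 (SE 1.00) and for Myoc 0.79 (SE 1.64), and none passed. The joint effect against either organ was not tested, since the joint values chose the genes.

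The share of cells with a UMI was compared over mice as well. At 400 UMIs per cell, 57.5% ± 7.73 of healthy and 79.1% ± 11.7 of CIA muscle fibroblasts held Gsn (SD, n = 4 mice each, two-sided exact permutation p = 0.0857, 0.476 after adjustment over 6 tests). Their ranges, 50.0% to 64.7% and 62.5% to 88.9%, overlapped at S2. For Gpx3 in muscle the shares were 20.5% ± 12.0 and 29.8% ± 6.76 (exact permutation p = 0.257, adjusted 0.514), and for Myoc 5.88% ± 11.8 and 7.37% ± 6.92 (p = 0.829, adjusted 0.873). In skin, 38.8% ± 15.3 of healthy and 24.8% ± 10.8 of CIA fibroblasts held Gsn (SD, n = 4 and 5 mice, exact permutation p = 0.159, adjusted 0.476). Skin shares of Gpx3 were 2.29% ± 3.25 and 3.25% ± 5.42 and of Myoc 2.99% ± 3.64 and 1.74% ± 3.89 (both exact permutation adjusted p = 0.873). Without thinning, the mean shares with Gsn were 63.3% and 84.6% in muscle and 53.5% and 32.9% in skin, those with Gpx3 26.9% and 44.1% and 4.05% and 4.88%, and those with Myoc 7.88% and 9.70% and 2.99% and 1.74%. None of the 6 differences passed at either depth. Where a mouse had no cell with a UMI the limit is wide. The 28 skin fibroblasts of H7 had none with a UMI of Myoc, which at 3 cells allows a share with a UMI of up to 10.7%, while the exact 95% interval ends at 12.3%. Such limits are on cells with a UMI and not on cells that express the gene. The smallest unadjusted p these exact permutation tests can give is 0.0286 in muscle and 0.0159 in skin. After adjustment over 6 tests, 1 gene at that limit alone would not pass, even with the groups fully apart. That none passed is therefore weak information on any 1 gene. The intervals drawn cover counting error only.

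**Figure D4:**
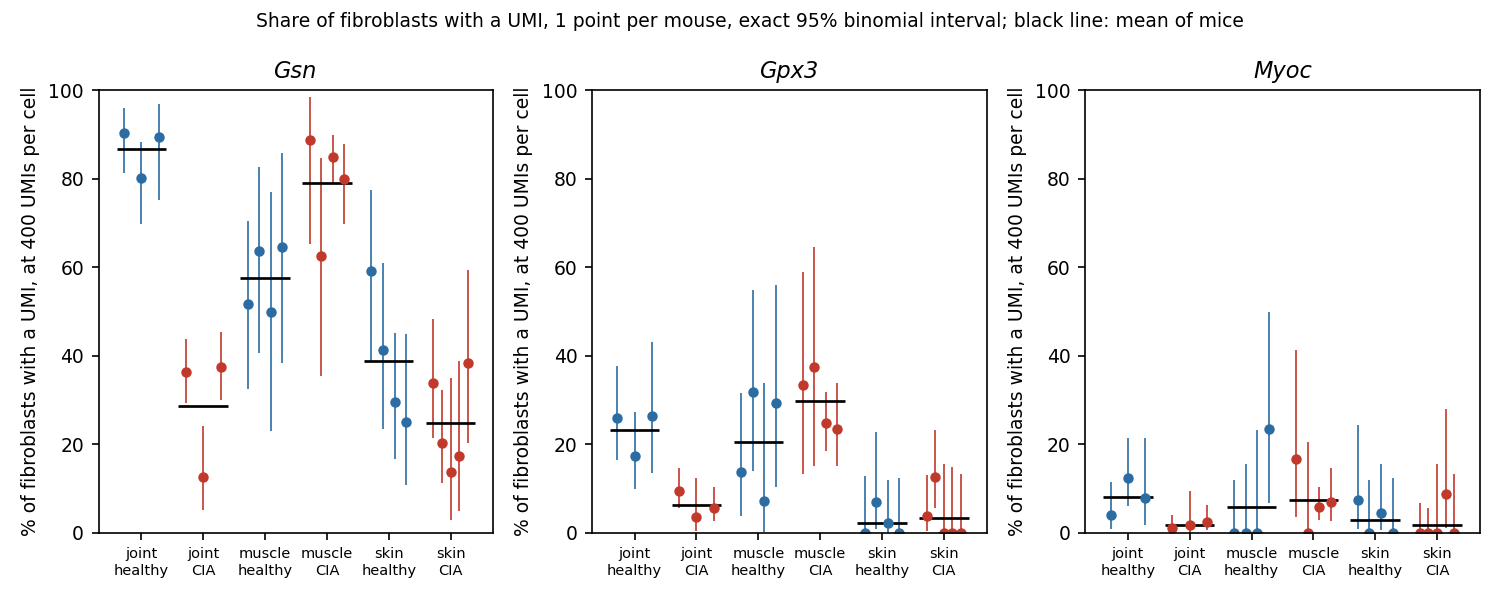
Percent of fibroblasts with at least 1 UMI of each gene after each cell was thinned to 400 UMIs, 1 point per mouse with its exact 95% binomial interval, and the mean of mice as a black line (blue healthy, red CIA). For Gsn, healthy joints sit at 80.2% to 90.4% and CIA joints at 12.5% to 37.5%, and the muscle and skin groups overlap.

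Free RNA can set a level below which a share of cells is not expression. T cells, for which these genes are not markers, held a Gsn UMI in 12 of 29 healthy and 8 of 132 CIA joint cells (medians of 597 and 858 UMIs), or 17.2% and 2.27% at 400 UMIs per cell. In joint, the share of T cells with Gsn was thus lower in CIA mice, as it was in fibroblasts, and its part in the joint values was not tested. In muscle, Gsn was in 10.0% of 350 healthy and 7.82% of 933 CIA T cells (medians of 552 and 588 UMIs), or 4.00% and 4.50% at 400 UMIs. Gpx3 was in 1.43% and 0.536% of these muscle T cells at 400 UMIs. Other muscle types, pooled over mice, differed more between the groups. At 400 UMIs, Gsn was in 14.9% of healthy and 61.0% of CIA endothelial cells, and in 7.32% and 20.3% of macrophages. It was in 5.71% and 18.5% of neutrophils, 10.3% and 17.1% of myocytes, and 3.57% and 0% of natural killer cells. Gpx3 was in 1.06% and 15.8% of muscle endothelial cells. The part of these in the muscle fibroblast shares was not tested. The T cells of single mice differed, with Gsn at 319, 21.8 and 211 CPM in H4, H6 and H7 and at 9.92, 10.6 and 398 CPM in S2, S3 and S6, and S5 had under 10 T cells. A UMI of Myoc was in 0 of 350 and 1 of 933 muscle T cells, where 3 cells of 350 would be 0.857%. The mean shares in muscle fibroblasts lay above those of T cells for Gsn and Gpx3. For Myoc, 3 of the 4 healthy mice had no fibroblast with a UMI at 400 UMIs. In skin, basal III cells, a class the authors named, held Gsn in 7.61% of 197 healthy and 4.86% of 514 CIA cells at 400 UMIs (medians of 896 and 741 UMIs before thinning). Their Gpx3 was in 0 of 197 and 1 of 514 cells before thinning, and Myoc in 0 of 197 and 0 of 514, where 3 cells would be 1.52% and 0.584%.

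The 3 genes were mostly a fibroblast signal. Of all Gsn UMIs in labelled cells, fibroblasts held 93.7% in healthy and 75.7% in CIA joints, 75.1% and 70.4% in muscle, and 84.4% and 72.4% in skin. In healthy mice, the order of Gsn over the 27 organ and cell type groups with at least 10 cells in a mouse opened with joint fibroblasts, muscle fibroblasts (8523 ± 4001) and skin fibroblasts (2311 ± 2072), then joint endothelial cells (383 and 1974 CPM in 2 mice). The ranges of joint and muscle, of muscle and skin, and of skin fibroblasts and joint endothelial cells each overlapped. Within mice, Gsn was higher in muscle than in skin fibroblasts in 4 of 4 healthy mice, and higher in joint than in muscle in H3 and H4 but not in H7. These differences between organs were not tested. The highest Gsn level outside joint among groups that are not fibroblasts was 481 ± 168 (SD, n = 3) in muscle endothelial cells, and spleen cells of healthy mice held at most 82.7 in any mouse with 10 cells of a type. Gpx3 and Myoc had the same first 3 groups, at 1402 ± 301, 759 ± 515 and 74.4 ± 100 for Gpx3 and 383 ± 252, 299 ± 519 and 58.3 ± 75.6 for Myoc (SD, n = 3, 4 and 4).

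**Figure D5:**
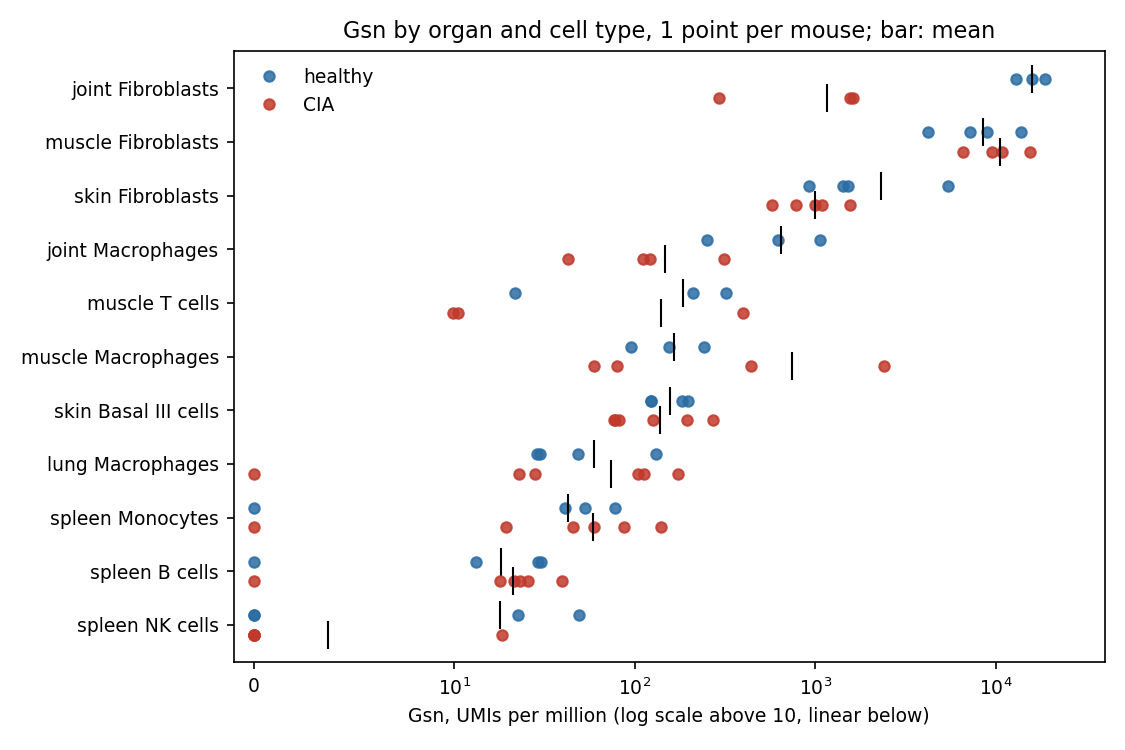
Gsn in CPM (axis linear below 10 and logarithmic above) in the 11 organ and cell type pairs with at least 3 healthy (blue) and 3 CIA (red) mice of 10 or more cells, 1 point per mouse, with the mean as a bar. Fibroblasts of joint, muscle and skin hold the 3 highest healthy means, from 2311 to 15756.

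In CIA mice the order changed. Muscle fibroblasts came first, followed by muscle endothelial cells of the single mouse S5 (3417 CPM in 132 cells), joint fibroblasts (1156) and skin fibroblasts (999). The S5 muscle library stood apart, with 3162 CPM of Gsn over its cells that were not fibroblasts against 10.6 to 650 in the other 5 CIA and 83.3 to 450 in the 4 healthy mice. Without S5 the muscle fibroblast change was 0.63 for Gsn and 0.40 for Gpx3. Joint macrophages held 645 ± 407 (SD, n = 3) in healthy and 147 ± 116 (SD, n = 4) in CIA mice, a log2 fold change of -2.12 (SE 0.67, edgeR adjusted p = 0.434 in the fit of all genes). In muscle macrophages the log2 fold change of Gsn was 2.41 (SE 0.69, edgeR adjusted p = 0.402), from 12 UMIs in healthy and 139 in CIA mice. The CIA mice S2, S3, S5 and S6 held 59.1, 79.6, 2404 and 441 CPM and the healthy mice H4, H6 and H7 held 154, 95.5 and 242, so that S2 and S3 lay below every healthy mouse and S5 and S6 above. Gsn passed the count filter outside fibroblasts only in muscle T cells (log2 fold change -0.22, SE 1.07) and skin basal III cells (-0.44, SE 0.38), and the edgeR adjusted p was 0.994 and 0.939.

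Genes with related roles were counted from fixed lists. Of 21 genes of the gelsolin family and of actin control, 10 other than Gsn were tested in joint fibroblasts, 0 passed, and their median log2 fold change was 0.46 beside 0.06 over all genes. In muscle 3 and in skin 5 other than Gsn were tested and 0 passed. Actb, a cytoplasmic actin, had 4435 CPM in healthy and 4630 in CIA skin fibroblasts. Of 26 listed peroxide and selenoprotein genes, 23 were in the table. Of these, 16 other than Gpx3 were tested in joint and 0 passed, with a median of 0.28. Gpx1, the intracellular glutathione peroxidase, had log2 fold changes of -0.28 (SE 0.38) in joint, -0.18 (SE 0.33) in muscle and -0.63 (SE 0.40) in skin. Selenok, of the endoplasmic reticulum, was at -0.65 (SE 0.30) in skin, and all 4 of the list tested in skin were below 0 without passing. Of 7 olfactomedin domain genes, Olfml3 was the one tested in joint other than Myoc, at 0.11 (SE 0.46).

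Lists of fibroblast states are given beside these values. Of 20 adventitial and sublining genes, 16 were tested in joint and 0 passed, with 13 below 0 and a median of -1.14. Dcn, the matrix proteoglycan decorin, had 20228 CPM in healthy and 6225 in CIA joints (-1.78, SE 0.54, edgeR adjusted p = 0.144), and Apod, an apolipoprotein of perivascular fibroblasts, 1795 and 241 (-2.85, SE 0.75, adjusted p = 0.115). In muscle 7 of the list were tested, with a median of 0.52 and 0 below 0, and Apod was at 1.57 (SE 0.58, adjusted p = 0.446). In skin 4 were tested with a median of 0.29, and Apod was at 1.43 (SE 0.43, adjusted p = 0.271). Of 8 lining genes 4 were tested in joint and 0 passed, with Prg4 at -0.63 (SE 0.70). Of 12 cartilage genes 5 were tested and 1 passed in joint. That gene, Cytl1, a cytokine-like protein of chondrocytes, had 282 UMIs in healthy and 0 in CIA joints. Its healthy mean over mice was 412-fold a floor of 3 UMIs over the CIA group. The floor pools the mice and the mean does not, so this is no strict bound. Comp, a cartilage matrix protein, was at -1.3 (SE 0.81). The 2 tendon genes tested included Thbs4 at 1.70 (SE 0.82), and 0 passed.

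Of 14 inflamed fibroblast genes, 9 were tested in joint, 5 rose and 0 fell, with a median of 2.91, where 1.18% of all genes tested passed as higher. Without H4 or without H7 no gene passed in joint fibroblasts, and without H3 only 1 did. Mmp3, a matrix protease, went from 224 to 4126 CPM (edgeR adjusted p = 0.0282), Timp1, a protease inhibitor, from 234 to 1832, and Hp, haptoglobin, from 36.3 to 518. Saa3, an acute phase protein, and Slpi, an antiprotease, had 0 UMIs in the healthy joints. Their CIA means over mice were 113-fold and 30.6-fold a floor of 3 UMIs over the healthy group, again no strict bound. In muscle 1 of these genes was tested (Cxcl1, a neutrophil chemokine, 0.12, SE 0.27). In skin 4 were tested and 0 passed, with Mmp3 at 0.65 (SE 0.65) and Ccl2, a monocyte chemokine, at 0.93 (SE 0.65). Healthy skin fibroblasts already held 3292 CPM of Mmp3. Of 13 genes known to respond to tissue dissociation, all 13 were tested in joint and 0 passed, with 13 below 0 and a median of -0.37. Fos was at -0.48 (SE 0.38) and Hspa1b at -1.35 (SE 0.55). In muscle the median of 6 was 0.27 and Egr1 was at 0.91 (SE 0.35), and in skin the median of 9 was 0.02 with Ier2 at -0.77 (SE 0.38) and Junb at 0.03 (SE 0.22). None passed in either organ.

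The genes whose levels ran most like each of the 3 were found over the 23 fibroblast sums of joint, muscle and skin, among 1582 genes with a mean of at least 100 CPM. These correlations describe samples that share mice, organs and depth. For Gsn the first 5 were Serping1 (Pearson r 0.845), the C1 inhibitor, Inmt (0.839), a methyltransferase, Serpinf1 (0.793), Dcn (0.787) and Angptl7 (0.771). Without the 6 joint samples their r was 0.757 to 0.879. For Gpx3 they were Ly6a (0.804), a marker of progenitor-like fibroblasts, the immediate early gene Fos (0.792), the scavenger receptor gene Scara5 (0.763), Serping1 (0.757) and Csf1 (0.754), a macrophage growth factor. For Myoc they were Ltbp4 (0.691), which binds latent TGF-beta, S100a6 (0.678), Ecm1 (0.642), Nfib (0.641) and Gsn (0.637). Without the joint samples, on which the genes were chosen, r was 0.751 to 0.816 for the 5 genes of Gpx3. For the 5 of Myoc it was then 0.565 to 0.642. Levels were taken as log2(CPM + 1). Myoc had 0 UMIs in muscle of H6 and S2 and in skin of H4, H7, S1, S2, S3 and S8. The r values of Myoc thus rest partly on whether a UMI was caught. Gsn and Gpx3 had an r of 0.561 with each other and Gpx3 and Myoc 0.346, or 0.594 and 0.233 without the joint samples.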

How the data were processed

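Per the study's methods, the authors aligned Seq-Well reads with STAR to GRCm38 and counted with Drop-seq tools. GEO's processing notes name bcl2fastq, Picard and STAR and the builds mm9 and GRCh38, and the build of the methods was used here for gene positions. The deposited values are raw UMI counts of each gene in each cell that the authors did not normalize, and the authors labelled 12096 cells by type. The text labels were used as deposited and no doublets were removed. UMIs were summed per mouse, organ and type (at least 10 cells), and CIA was compared with healthy by edgeR 4.0.16 (R 4.3.3) quasi-likelihood tests with TMM factors, filterByExpr and Benjamini-Hochberg adjustment at 0.05, with at least 3 mice a group. A member that the filter removed was read from the fit of all genes with at least 1 UMI. Samples of 1 organ come from separate mice. Shares of cells with a UMI were taken after thinning each cell to 400 UMIs and set against each other over mice with exact permutation tests (two-sided), adjusted over 6 tests. Python 3.11.15 with numpy 2.4.6, scipy 1.17.1, pandas 2.3.3 and matplotlib 3.10.9 served for the rest, and fits were tested on simulated data. Alternatives were DESeq2 1.42.0, other scalings and filters, at least 5 or 20 cells, experiment or red cell lysis as a term, the experiment CIA alone, 1 fit over 3 organs, means over cells, exact permutation of log2(CPM + 1), no thinning, and leaving out each mouse. Named were the 3 genes, up to 3 called genes per organ outside joint, the 5 genes most like each, and per list the tested gene with most UMIs, with the largest fold change, and those past the threshold. The genes, lists and tests were chosen with earlier results of these data known.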

Additional observations from a re-analysis of the deposited data

Results flagged for a closer look

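In groups of 4 or 5 mice, 6 values (levels in CPM) stood apart from the rest of their group, by the gap to the nearest mouse as a share of the group's range, over 24 groups of levels and shares examined. Chance marks about 1 in 20 groups only where values are normally spread. A group in which all mice but 1 are at 0 is always marked, which holds for Myoc in CIA skin and for its share in healthy muscle. The levels and shares come from the same cells. Healthy mouse H3 held 5396 CPM of Gsn in skin fibroblasts, and the next mouse held 1507. In CIA muscle fibroblasts, S2 held 618 CPM of Gpx3 and the next mouse 993. Myoc in healthy muscle fibroblasts was 1075 CPM in H7 and 76.5 in the next mouse, and at 400 UMIs per cell 23.5% of the fibroblasts of H7 and 0% of those of the other healthy mice held it. In skin, S5 was the only CIA mouse with Myoc, at 167 CPM and 8.70% of cells, from 3 UMIs. No explanation of these values was tested.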

How the results depend on the processing

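No paired analysis was possible because, for CIA against healthy mice within an organ, equal mouse numbers belong to different animals and, among the mice with enough fibroblasts, the groups share only 1 number. The difference between muscle and skin effects, where organs come from the same mice, was fitted with the mouse as a block (1.83 for Gsn). Of 287 values recomputed, 248 kept their direction and side of the threshold or moved within the limits set for them. The total includes the joint values of the 3 genes, on which they were chosen. A difference that kept its direction and again did not pass counts as kept. No member passed the threshold in muscle or skin under any alternative, but some alternatives could not pass. The exact share tests had too few mice for a p below 0.05 in the experiment CIA alone. The same holds in muscle with 1 mouse left out. Those values could only be kept or turn in direction, and say nothing on the threshold. Gsn kept its direction throughout, between 0.14 and 0.80 in muscle and between -1.40 and -0.12 in skin, as did Gpx3 in muscle (0.14 to 0.80). Joint fibroblast calls were 17, against 41 by DESeq2, 8 with plain library size, 100 without the filter and 73 in the experiment CIA alone, and 0 to 43 when 1 mouse was left out (0 without H4 or H7, 1 without H3, 10 without S1, 43 without S3). Of the joint values, Gpx3 moved to -3.49 in that experiment and Myoc to -3.20 without H4. Muscle calls were 0, against 3 by DESeq2 and 2 without the filter, and 0 without any 1 mouse. Skin calls were 0, against 1 by DESeq2 and 12 without the filter, and 0 without any 1 mouse. The log2 fold change of Myoc in muscle turned to 2.58 with at least 20 cells, 0.10 with experiment as a term, 0.095 with red cell lysis as a term and 0.44 in the exact permutation of log2(CPM + 1), and ran from -0.53 to 2.48 without 1 mouse (2.48 without H7, 0.17 without S2). That of Gpx3 in skin turned to -4.38 in the experiment CIA alone and -1.48 in the exact permutation, and ran from -0.31 to 2.11 without 1 mouse. That of Myoc in skin turned to 1.00 in the experiment CIA alone and ran from -3.82 to -0.42 without 1 mouse (-3.82 without S5, -0.42 without H3). In that experiment the differences in the share of cells turned too, to -1.44 percentage points for Myoc in muscle, -3.06 for Gpx3 in skin and 2.83 for Myoc in skin. Without 1 mouse these ran from -1.61 to 7.37, from -1.35 to 2.5 and from -2.99 to 0.22. Gsn in muscle T cells was 0.068 without the filter and ran from -3.87 to 0.44 without 1 mouse. The cause of these changes was not tested. Low cell numbers, with 14 to 29 fibroblasts in 6 of the 8 muscle mice, limit what could be seen of Gpx3 and Myoc.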
